A study of Homo sapiens with 6 samples.

Results

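Collagen genes were taken as all rows of the deposited expression table with a gene symbol of the form COL, a number, A and a number, also where the row joined several symbols. They comprised 43 genes in 50 of the 24108 rows, and 19 of these 50 rows had a mean of at least 1 FPKM (fragments counted per kilobase of transcript length and relative to library size) and were tested. RNA-seq was performed in MDA-MB-231, an established basal, triple-negative breast cancer cell line. A group of 3 replicates (shCtr) carried a hairpin RNA against luciferase, and 3 replicates (shZNF148) carried 1 hairpin against ZNF148, a Krüppel-type zinc finger transcription factor. Cells of both groups were exposed to lentivirus for 48 h and kept in 0.5 µg/ml puromycin for 24 h, so both groups had been infected and drug-selected. The comparison asked which transcripts differed once ZNF148 was reduced.

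Collagens are triple-helical proteins of the extracellular matrix, and each molecule is built from 3 chains that may come from different genes. Fibrillar collagens form the fibres of connective tissue, basement membrane collagens form or join the sheet under epithelia and vessels, and FACIT collagens sit on the surface of fibrils. The other collagens include beaded filaments, short-chain networks, anchoring fibrils and chains that span the cell membrane. Much of the fibrillar collagen of a breast tumour is made by stromal fibroblasts, while carcinoma cells themselves transcribe a narrower set. The mouse homolog of ZNF148 is known to bind the proximal promoters of the type I collagen genes.

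ZNF148 itself stood at 3.72, 4.36 and 4.30 FPKM in shCtr replicates 1 to 3 and at 0.914, 0.282 and 0.834 FPKM in shZNF148 replicates 1 to 3. It was lowest in shZNF148 replicate 2, and the groups did not overlap. The defining genes of the line were present, with VIM at 1772 ± 67.6 FPKM in shCtr (SD, n = 3), while ESR1 was listed at 0 in all 6 samples, CDH1 did not exceed 0.491 FPKM and PGR did not exceed 0.0830 FPKM. EPCAM, an epithelial gene listed as low in this line, read 7.996 to 11.1 FPKM over the 6 samples. A pair of libraries stood apart from the rest. The row of ERBB2, which was joined with MIR4728, read 126 FPKM in shCtr replicate 2 and 125 FPKM in shZNF148 replicate 2 against 20.1 to 24.8 FPKM in the other libraries. In shCtr replicate 2, the fibroblast gene DCN read 2.82 FPKM and was listed at 0 in the other 5 libraries, and THY1 read 0.798 FPKM against at most 0.0486 FPKM. The fibroblast genes POSTN (0.342 FPKM), LUM (0.323 FPKM), PDGFRA (0.162 FPKM) and FAP (0.0406 FPKM) were also highest in that library. PDGFRB and ACTA2 were highest in other libraries. Over the whole list of 8 fibroblast markers, 5 stayed below 1 FPKM in every library, and the summed level was 21.7 to 32.8 FPKM in shCtr and 16.8 to 26.6 FPKM in shZNF148, most of it from ACTA2 and PDGFRB. Endothelial markers summed to at most 0.618 FPKM and leukocyte markers to at most 2.01 FPKM. Calls that differ without the libraries numbered 2 are therefore also given without them. Sequencing depth in reads is unknown. The commonest ratio between low values put the scaling of the other 5 libraries at 0.81 to 1.13 times that of shCtr replicate 1. In a normalized table this scaling need not equal depth. The labels do not say that replicates were separate cultures, so the p-values measure the spread between these samples, which may be technical.

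Of the 19 tested collagen rows, 5 were lower in shZNF148 (COL8A1, COL4A1, COL4A2, COL12A1 and COL4A5), 1 was higher (COL6A1) and 13 were not called. Calls required more than a 1.5-fold change in FPKM + 1 and an adjusted p under 0.05, from limma with Benjamini-Hochberg adjustment over 11777 rows. Collagen rows were thus called in 31.6% of cases, against 5.49% of all tested rows. The share of all tested rows called lower was 3.66%, and the share called higher was 1.83%. The groups did not overlap in 11 collagen rows (57.9%), 6 of them lower and 5 higher in shZNF148, against 41.0% of all tested rows. The median log2 fold change over the 19 rows was -0.12, against 0.01 over all tested rows, with 8 rows above 0 and 11 below. Calls fell in every class except the fibrillar one, which had 0 called of 4 tested, while 3 of 4 basement membrane rows, 1 of 3 FACIT rows and 2 of 8 other rows were called. These values are from bulk RNA, in which fewer cells of a type and less RNA per cell cannot be told apart.

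**Figure D1:**
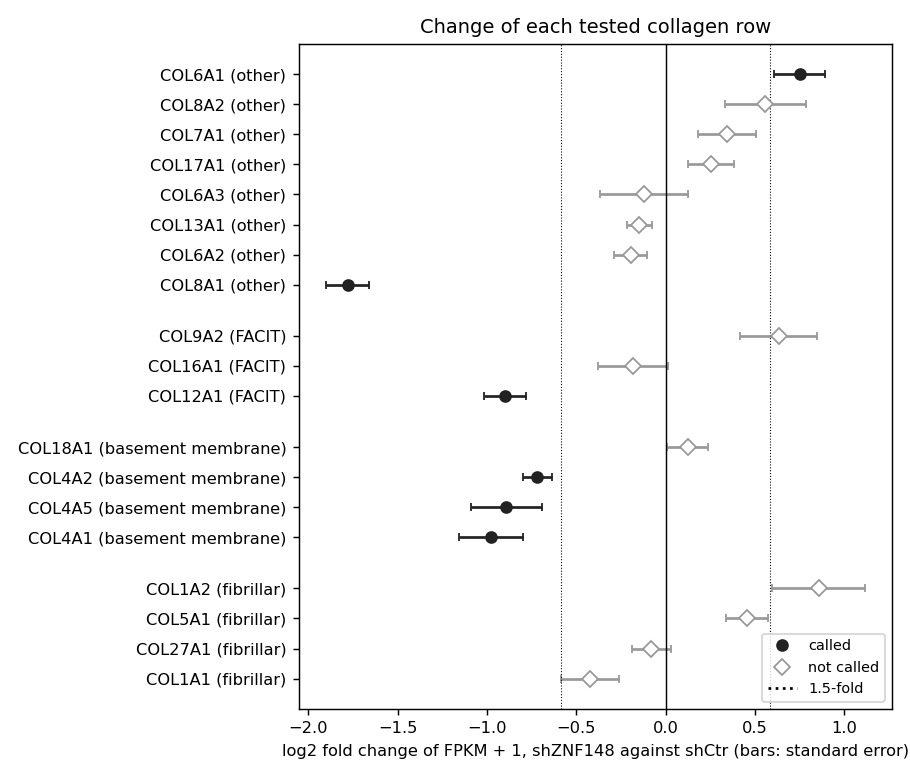
Log2 fold change of FPKM + 1 (shZNF148 against shCtr, horizontal axis) of each of the 19 tested collagen rows, grouped by class, with bars for the standard error and dotted lines at 1.5-fold. COL8A1 lay farthest from 0 at -1.78, COL6A1 was the 1 called row to the right, and filled points mark the 6 called rows.

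Levels are per transcript length and can be set side by side between genes. COL13A1, a collagen that spans the cell membrane, had the highest level in both groups, with a mean of 136 ± 6.70 FPKM over the shCtr and 122 ± 6.91 FPKM over the shZNF148 samples (SD, n = 3 each). In shCtr it was followed by COL8A1 (118 ± 5.76 FPKM), COL18A1 (79.6 ± 5.53 FPKM), COL4A2 (74.6 ± 2.75 FPKM), COL5A1 (44.3 ± 1.22 FPKM) and COL6A1 (43.9 ± 1.10 FPKM). The ranges of COL18A1 and COL4A2 overlapped, as did those of COL5A1 and COL6A1, whereas COL13A1, COL8A1 and COL18A1 were apart. In shZNF148 the order began with COL13A1, COL18A1, COL6A1 and COL5A1, and COL8A1 stood at rank 6. Of the 18 pairs of neighbours in the order, 9 had overlapping ranges in shCtr and 10 in shZNF148. The genes of type I collagen, the main collagen of fibroblasts, were low, with COL1A1 at rank 16 in shCtr (5.06 ± 1.36 FPKM).

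The decrease of COL8A1 was the largest among the tested collagens. COL8A1 encodes a chain of type VIII collagen, a short-chain collagen that forms hexagonal networks, best known from the matrix beneath corneal and vascular endothelium. Its row, on chromosome 3, read 122, 111 and 121 FPKM in shCtr replicates 1 to 3 and 35.4, 27.7 and 38.5 FPKM in shZNF148 replicates 1 to 3. Every shZNF148 sample lay far below every shCtr sample. The log2 fold change was -1.78 ± 0.12 (SE, limma adjusted p = 0.00318), and the mean in shZNF148 was 28.7% of that in shCtr. COL8A1 alone among the collagens was called under all 17 alternatives, with log2 fold changes from -1.88 to -1.65. The row was joined with a microRNA gene (MIR548G), so its value cannot be assigned to COL8A1 alone.

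COL8A2 encodes the other chain of type VIII collagen and did not follow COL8A1. Its main row read 14.5, 18.1 and 10.5 FPKM in shCtr and 19.2, 17.7 and 27.9 FPKM in shZNF148, and the groups overlapped because shCtr replicate 2 lay above shZNF148 replicate 2. The log2 fold change was 0.56 ± 0.23 (limma adjusted p = 0.142). It was 0.36 without shCtr replicate 3, 0.37 without shZNF148 replicate 3 and 0.85 without both samples numbered 2 (adjusted p = 0.339, 0.287 and 0.0890). A second row with the COL8A2 symbol had a mean under 1 FPKM and was left out by the filter on low values. It read 1.03, 0.704 and 0.578 FPKM in shCtr and 0.257, 0.308 and 0.197 FPKM in shZNF148, opposite in direction to the main row, with no overlap between the groups. Fitted without the filter, its log2 fold change was -0.49 ± 0.10 (limma adjusted p = 0.0453), under 1.5-fold.

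Type IV collagen, the network-forming collagen of all basement membranes, was lower in shZNF148 through the 3 chains above the filter. COL4A2, with the highest level of these, read 77.5, 74.2 and 72.1 FPKM in shCtr and 47.2, 40.3 and 47.6 FPKM in shZNF148. All 3 shZNF148 values lay below all 3 shCtr values. The log2 fold change was -0.72 ± 0.08 (limma adjusted p = 0.0103), and the call was lost when shCtr replicate 1 or replicate 3 was left out (adjusted p = 0.0713 and 0.0653). COL4A1 encodes the chain that joins COL4A2 in the same trimer, with 2 COL4A1 chains for 1 COL4A2 chain. It read 25.4, 25.3 and 26.1 FPKM in shCtr and 14.9, 8.998 and 14.5 FPKM in shZNF148. The groups did not overlap, and shZNF148 replicate 2 was the lowest by a wide margin. Its log2 fold change was -0.98 ± 0.18 (limma adjusted p = 0.0233). The adjusted p of COL4A1 rose to 0.0981, 0.0725 and 0.0952 without shCtr replicates 1, 2 and 3 and to 0.0514 without shZNF148 replicate 1, and was 0.00393 without shZNF148 replicate 2 (log2 fold change -0.76).

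COL4A5 is an X-linked chain of the type IV network of kidney and skin and was expressed at a low level. It read 1.97, 1.61 and 2.354 FPKM in shCtr and 0.801, 0.232 and 0.826 FPKM in shZNF148. All shZNF148 values stayed under 1 FPKM and all shCtr values above it. The log2 fold change was -0.89 ± 0.20 (limma adjusted p = 0.0356) and depended on the pseudocount at this level, running from -1.66 with 0.1 FPKM (adjusted p = 0.0560) to -0.31 with 5 FPKM. The call was kept without shZNF148 replicate 2 (adjusted p = 0.0337) and lost without shCtr replicates 1, 2 or 3 (adjusted p = 0.120, 0.0721 and 0.112) or shZNF148 replicates 1 or 3 (adjusted p = 0.0658 and 0.0509).

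The remaining type IV chains were left out by the filter on low values. COL4A4 read 0.575, 0.416 and 0.557 FPKM in shCtr and 0.264, 0.208 and 0.357 FPKM in shZNF148, and COL4A3 did not exceed 0.0810 FPKM. In both, the shZNF148 values lay below the shCtr values. For COL4A3 the margin was narrow, with 0.0521 FPKM in shCtr replicate 2 against 0.0508 FPKM in shZNF148 replicate 2. COL4A6 was listed at 0 in shZNF148 replicates 2 and 3 and did not exceed 0.1004 FPKM elsewhere. Without the filter, none of the 3 passed the test (limma adjusted p = 0.0809 for COL4A4, 0.313 for COL4A3 and 0.349 for COL4A6). COL18A1, the basement membrane proteoglycan chain that holds the endostatin fragment, differed from the type IV chains. It read 85.5, 74.6 and 78.6 FPKM in shCtr and 76.9, 102 and 82.5 FPKM in shZNF148, with overlapping groups and a log2 fold change of 0.12 ± 0.12 (limma adjusted p = 0.488). The related COL15A1 stayed below 1 FPKM, at 0.376, 0.447 and 0.336 FPKM in shCtr and 0.705, 0.772 and 0.467 FPKM in shZNF148. COL4A3, COL4A4, COL4A6 and COL15A1 were chosen for naming after their values were seen.

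COL12A1 encodes the FACIT chain of type XII collagen, which binds type I fibrils in tendon, ligament and tumour stroma. It read 22.0, 25.5 and 22.6 FPKM in shCtr and 13.4, 10.1 and 12.9 FPKM in shZNF148. The groups were well apart, with the highest value in shCtr replicate 2 and the lowest in shZNF148 replicate 2. Without both of these samples the log2 fold change was -0.72 (limma adjusted p = 0.0210), against -0.90 ± 0.12 with all 6 (adjusted p = 0.0120). The call was lost without shCtr replicates 1, 2 or 3 (adjusted p = 0.0720, 0.0505 and 0.0725). COL9A2, a chain of the cartilage collagen type IX, read 11.1, 10.7 and 10.4 FPKM in shCtr and 14.3, 25.2 and 13.96 FPKM in shZNF148. Its groups did not overlap, but shZNF148 replicate 2 lay far above the rest, and the row was not called (log2 fold change 0.63 ± 0.21, limma adjusted p = 0.0923). Without that sample the log2 fold change of COL9A2 was 0.37, under 1.5-fold, with an adjusted p of 0.0263, and without both samples numbered 2 it was also 0.37 (adjusted p = 0.0584). COL16A1 read 3.51, 2.29 and 1.86 FPKM in shCtr and 2.56, 1.89 and 1.82 FPKM in shZNF148, with overlapping groups (limma adjusted p = 0.544). The other 7 FACIT rows were not tested, and COL20A1 was the highest of them, at up to 0.733 FPKM.

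COL6A1 was the 1 collagen called higher. It encodes a chain of type VI collagen, the beaded microfilament around cells, and lies beside COL6A2 on chromosome 21. COL6A1 read 45.2, 43.3 and 43.2 FPKM in shCtr and 66.6, 94.3 and 65.7 FPKM in shZNF148. The shCtr values were close to each other, every shZNF148 value was above them, and replicate 2 was the highest. The log2 fold change was 0.75 ± 0.14 (limma adjusted p = 0.0250). Without shZNF148 replicate 2 it was 0.58 (adjusted p = 0.00500), just under the 1.5-fold limit, and the call was also lost without shCtr replicates 1, 2 or 3 (adjusted p = 0.0981, 0.0795 and 0.0977) or shZNF148 replicate 1 (adjusted p = 0.0572).

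The partner chains of COL6A1 were not called. COL6A2 read 36.4, 36.6 and 30.9 FPKM in shCtr and 30.1, 28.0 and 32.1 FPKM in shZNF148 (log2 fold change -0.20 ± 0.09, limma adjusted p = 0.184). COL6A3, the largest of the 3 chains, read 9.39, 9.33 and 9.64 FPKM in shCtr and 12.2, 5.43 and 9.39 FPKM in shZNF148. Its shCtr values were tight, and its shZNF148 values lay on both sides of them (log2 fold change -0.12 ± 0.25, limma adjusted p = 0.755; 0.17 without shZNF148 replicate 2). COL6A5 and COL6A6 were listed at 0 in some samples and were not tested.

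The collagens of the skin basement zone and cell membrane were not called. COL7A1, the chain of anchoring fibrils, read 26.4, 18.5 and 26.8 FPKM in shCtr and 30.1, 26.3 and 34.8 FPKM in shZNF148, with shCtr replicate 2 the lowest of all (limma adjusted p = 0.192). COL17A1, a hemidesmosome collagen, read 3.79, 3.90 and 3.61 FPKM in shCtr and 3.95, 5.70 and 4.52 FPKM in shZNF148, which lay just above (limma adjusted p = 0.214). COL13A1 read 141, 128 and 138 FPKM in shCtr and 115, 123 and 129 FPKM in shZNF148, with groups that overlapped by a narrow margin (log2 fold change -0.15 ± 0.07, limma adjusted p = 0.183). The rows of COL7A1 and COL17A1 were joined with the microRNA genes MIR711 and MIR936 and cannot be assigned to the collagen alone.

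Among the fibrillar collagens, COL5A1 had the highest level. COL5A1 encodes the chain that starts and limits the width of type I fibrils. It read 45.4, 44.5 and 43.0 FPKM in shCtr and 56.4, 73.8 and 54.8 FPKM in shZNF148. The groups did not overlap, and its adjusted p passed the threshold, but the change was under 1.5-fold (log2 fold change 0.45 ± 0.12, limma adjusted p = 0.0494). With any one library left out, the adjusted p of COL5A1 was 0.0539 to 0.151, except without shZNF148 replicate 2 (0.0205, log2 fold change 0.32). Its partner COL5A2 did not exceed 0.291 FPKM. COL27A1, a cartilage fibril chain, read 9.33, 9.42 and 8.77 FPKM in shCtr and 8.72, 7.40 and 9.88 FPKM in shZNF148, with overlapping groups (limma adjusted p = 0.630).

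The type I collagen genes differed from each other in the sign of their change, and neither was called. COL1A2, which encodes the single alpha 2 chain of the type I trimer, read 5.87, 9.65 and 4.88 FPKM in shCtr and 11.4, 17.1 and 10.4 FPKM in shZNF148. Each shZNF148 value was above each shCtr value, and replicate 2 was the highest in both groups. The log2 fold change was 0.86 ± 0.26 (limma adjusted p = 0.0727), and without both samples numbered 2 it was 0.90 and passed the test (adjusted p = 0.0317). COL1A1, which encodes the alpha 1 chain, read 4.44, 6.62 and 4.12 FPKM in shCtr and 3.51, 3.63 and 3.19 FPKM in shZNF148. Each shZNF148 value was below each shCtr value, with shCtr replicate 2 the highest (log2 fold change -0.42 ± 0.16, limma adjusted p = 0.123). Without shCtr replicate 2, the log2 fold change of COL1A1 was -0.25 (adjusted p = 0.188) and that of COL1A2 was 1.10 (adjusted p = 0.0644). That library also had the highest values of COL3A1 (0.448 FPKM) and COL5A2 (0.291 FPKM) and of DCN and THY1 among the 6. For COL3A1 and COL5A2, shZNF148 replicate 2 came next (0.247 and 0.164 FPKM), whereas DCN and THY1 were listed at 0 there. The part of fibroblast transcripts in the type I values was not tested.

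Of the 31 rows below the limit of 1 FPKM, 12 were listed at 0 in all samples, 13 were listed at 0 in some and 6 were above 0 in all. A 0 in an FPKM table can be a failed estimate, and such rows are counted here only as listed at 0. COL11A2, a cartilage chain, had 7 rows, all at 0. Fibrillar rows made up 13 of the 31, basement membrane rows 4, FACIT rows 7 and other rows 7. The highest single value among them was the 1.03 FPKM of the second COL8A2 row. With no filter on low values, 19 of these rows could be fitted, of which 1, the second COL8A2 row, passed the adjusted p and 0 were called.

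Partner chains were compared as a ratio within each sample, which does not depend on the scaling of the library. Of 6 pairs of chains, 4 had both members above the limit, and the ratios of the groups did not overlap in any of the 4. No such share was computed for ratios of other rows. Among single tested rows, the groups did not overlap in 41.0%. The pairs of types VIII, IV and VI hold rows called above, so their ratios in part restate those calls. In type I neither row was called, but COL1A1 was lower and COL1A2 higher in shZNF148, each without overlap. The separation of their ratio, and its p-value, follow from those values and add no further evidence. For COL8A1 to COL8A2 the ratio was 8.41, 6.14 and 11.5 in shCtr and 1.85, 1.57 and 1.38 in shZNF148, a log2 difference of -2.40. For COL1A1 to COL1A2 it was 0.755, 0.686 and 0.844 in shCtr and 0.308, 0.212 and 0.308 in shZNF148, a log2 difference of -1.48. For COL6A1 to COL6A2 it was 1.24, 1.18 and 1.40 in shCtr and 2.21, 3.37 and 2.05 in shZNF148, a log2 difference of 0.96. In these 3 pairs the ratio changed by more than the spread within either group, downwards for the alpha 1 chains of types VIII and I and upwards for type VI. COL4A1 to COL4A2 differed least, with 0.328, 0.342 and 0.362 in shCtr and 0.316, 0.223 and 0.305 in shZNF148, a log2 difference of -0.30 that shrank to -0.15 without shZNF148 replicate 2. The exact two-sided permutation test gave p = 0.1 for each pair and, after Benjamini-Hochberg adjustment over the 4 pairs, 0.1, which is the smallest p that 3 against 3 samples allow. The ratios of transcripts were not compared with the chains in the protein.

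Summed over all 50 rows, collagen FPKM was 693, 656 and 660 in shCtr and 565, 621 and 596 in shZNF148. Every shZNF148 sum was below every shCtr sum, and the mean in shZNF148 was 88.7% of that in shCtr (exact two-sided permutation p = 0.1, the smallest possible). The mean sum differed by -75.6 FPKM, while the COL8A1 row alone went from a mean of 118 to 33.9 FPKM. The lower sum therefore rests on that row and does not describe a fall shared across the collagens. Sums without that row were not compared. Collagens made up 0.119% to 0.137% of the summed FPKM of a sample. Basement membrane collagens summed to 183 ± 7.71 FPKM in shCtr against 147 ± 5.98 FPKM with the ZNF148 hairpin, and the other collagens to 384 ± 14.8 and 328 ± 14.6 FPKM (SD, n = 3 each). That last class includes COL8A1, whose fall was larger than that of the class sum. The fibrillar sum went the other way, from 65.7 ± 5.11 to 87.0 ± 13.4 FPKM, and the FACIT sums overlapped. Most of that rise came from the COL5A1 row, which went from a mean of 44.3 to 61.6 FPKM and was not called. Of the 4 tested fibrillar rows, 2 had a log2 fold change above 0 and 2 below, so the sum does not describe a rise shared across the class. The makeup of the collagen transcripts shifted more than their total. COL8A1 gave 17.6% ± 0.659 of collagen FPKM in shCtr and 5.73% ± 1.10 in shZNF148, while COL6A1 gave 6.56% ± 0.0419 and 12.7% ± 2.21, and COL5A1 gave 6.61% ± 0.147 and 10.3% ± 1.39. COL13A1 held its share, at 20.3% ± 0.698 and 20.6% ± 0.987, while its mean level went from 136 to 122 FPKM. These shares have a common total, so the fall of COL8A1 by itself raises the shares of the other collagens.

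In the called rows, shZNF148 replicate 2 was the sample farthest from shCtr in 6 of 6 collagens, and in 10 of the 11 collagens whose groups did not overlap. Over all rows called the share was 71.6%, and over all tested rows 50.3%. This library also had the lowest ZNF148 value of the 6, and what part either has in the size of the collagen changes was not tested. Without both samples numbered 2, the same 5 collagens were called lower, and COL1A2 took the place of COL6A1 as the 1 called higher.

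Promoter sequences of the called collagens are shown because the protein reduced here is a DNA-binding factor. The RefSeq table of GRCh38.p14 held the 250 bases before and 50 bases after the start of 15 of the 19 tested collagens, with no entry matched for COL1A1, COL1A2, COL6A1 and COL8A1. Of the called rows, COL4A1, COL4A2, COL12A1 and COL4A5 had an entry. The words CCCTCCCC, GGGCGG and TATAAA were searched on both strands, and a match of one can share bases with a match of another. CCCTCCCC was chosen as a GC-rich word of the kind that ZNF148 is known to bind, GGGCGG is the GC box and TATAAA the TATA box. The first was present in 12.8% of all 27305 promoters, in 7 of 15 tested collagens and in 3 of 4 called ones. GGGCGG was present in 44.6% of all promoters, in 11 of 15 tested collagens and in 3 of 4 called ones, and TATAAA in 11.95%, 4 of 15 and 0 of 4. These windows were rich in G and C, with a median of 71.7% over the 15 collagens against 58.3% over all promoters, and 12 of the 15 (3 of the 4 called) lay above that median. The part of base composition in the match counts was not tested. Such matches describe the letters in these windows, and no binding was measured here.

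COL4A1 and COL4A2 are transcribed from one shared stretch in opposite directions. Their start sites on chromosome 13 lie 126 bases apart, and their windows share 226 bases. The 1 match of CCCTCCCC in each is the same stretch of DNA, at chr13:110307198-110307205. A match of GGGCGG at chr13:110307219-110307224 is also shared. The counts of collagens with these words given above thus count each shared site for both genes. The windows are given 5′ to 3′ on the strand of the gene, with CCCTCCCC or its complement in capitals, for COL4A2 (chr13:110307034-110307333, plus strand) and COL4A1 (chr13:110307108-110307407, minus strand).
COL4A2: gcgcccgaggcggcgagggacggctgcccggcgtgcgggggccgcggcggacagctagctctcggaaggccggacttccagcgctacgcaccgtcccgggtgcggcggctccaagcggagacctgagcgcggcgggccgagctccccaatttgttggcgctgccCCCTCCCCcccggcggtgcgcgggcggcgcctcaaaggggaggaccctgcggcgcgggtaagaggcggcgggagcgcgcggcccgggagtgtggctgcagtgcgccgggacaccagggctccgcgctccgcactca
COL4A1: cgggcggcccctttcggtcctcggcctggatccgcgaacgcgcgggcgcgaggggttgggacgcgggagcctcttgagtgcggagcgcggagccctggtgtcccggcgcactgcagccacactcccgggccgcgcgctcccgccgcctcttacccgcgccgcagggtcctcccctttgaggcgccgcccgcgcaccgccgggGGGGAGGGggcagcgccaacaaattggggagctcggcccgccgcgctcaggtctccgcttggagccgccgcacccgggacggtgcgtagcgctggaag

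The window of COL4A5 (chrX:108439588-108439887, plus strand) held CCCTCCCC at base -133 from the start, and that of COL12A1 (chr6:75206004-75206303, minus strand) did not hold it on either strand. Both are written as above, with the match in capitals.
COL4A5: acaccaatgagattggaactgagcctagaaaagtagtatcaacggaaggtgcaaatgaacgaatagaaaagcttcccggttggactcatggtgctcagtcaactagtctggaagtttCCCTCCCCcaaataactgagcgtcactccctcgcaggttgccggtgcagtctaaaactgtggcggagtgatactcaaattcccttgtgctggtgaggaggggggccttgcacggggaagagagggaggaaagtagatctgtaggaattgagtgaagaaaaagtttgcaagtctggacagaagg
COL12A1: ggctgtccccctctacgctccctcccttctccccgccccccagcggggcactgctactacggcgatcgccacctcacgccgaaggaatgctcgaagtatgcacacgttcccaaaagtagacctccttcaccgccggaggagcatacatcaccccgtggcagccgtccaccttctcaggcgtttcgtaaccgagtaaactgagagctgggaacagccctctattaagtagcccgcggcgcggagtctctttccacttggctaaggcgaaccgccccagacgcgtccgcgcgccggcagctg

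A hairpin can also act on transcripts that pair with bases 2 to 8 of its guide strand, its seed. The 21 bases of the ZNF148 target are given with the word that the seed pairs with in capitals.
shZNF148 target: cccttggtgaatgTAAATGAt
The word TAAATGA was present in the 3′ UTR of 22.6% of the 10102 tested rows matched to a GENCODE canonical transcript, and in 19.7% of the matched rows called lower. It was present in 2 of the 19 tested collagens. These were COL8A1 and COL12A1, both called lower, and the 3′ UTRs of the other 3 collagens called lower and of COL6A1 did not hold it. The sites are shown with the flanking bases of the transcript, at base 2642 of the 3081-base 3′ UTR of COL8A1 and base 405 of the 2221-base 3′ UTR of COL12A1. Whether the hairpin acted on them was not tested, and with 1 hairpin the reduction of ZNF148 and other actions of that hairpin cannot be told apart.
COL8A1: aatctcagaccTAAATGAtactccattta
COL12A1: attgtggcttgTAAATGAtttgtatgtga

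The genes that modify, fold, export, trim, cross-link, bind and cut collagen were taken as a list of 51 genes. All were found, in 58 rows, of which 36 were tested. A total of 6 were called lower and 1 higher, against the 3.66% and 1.83% of all tested rows, and 29 were not called. The median log2 fold change was -0.04, against 0.01 over all tested rows.

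**Figure D2:**
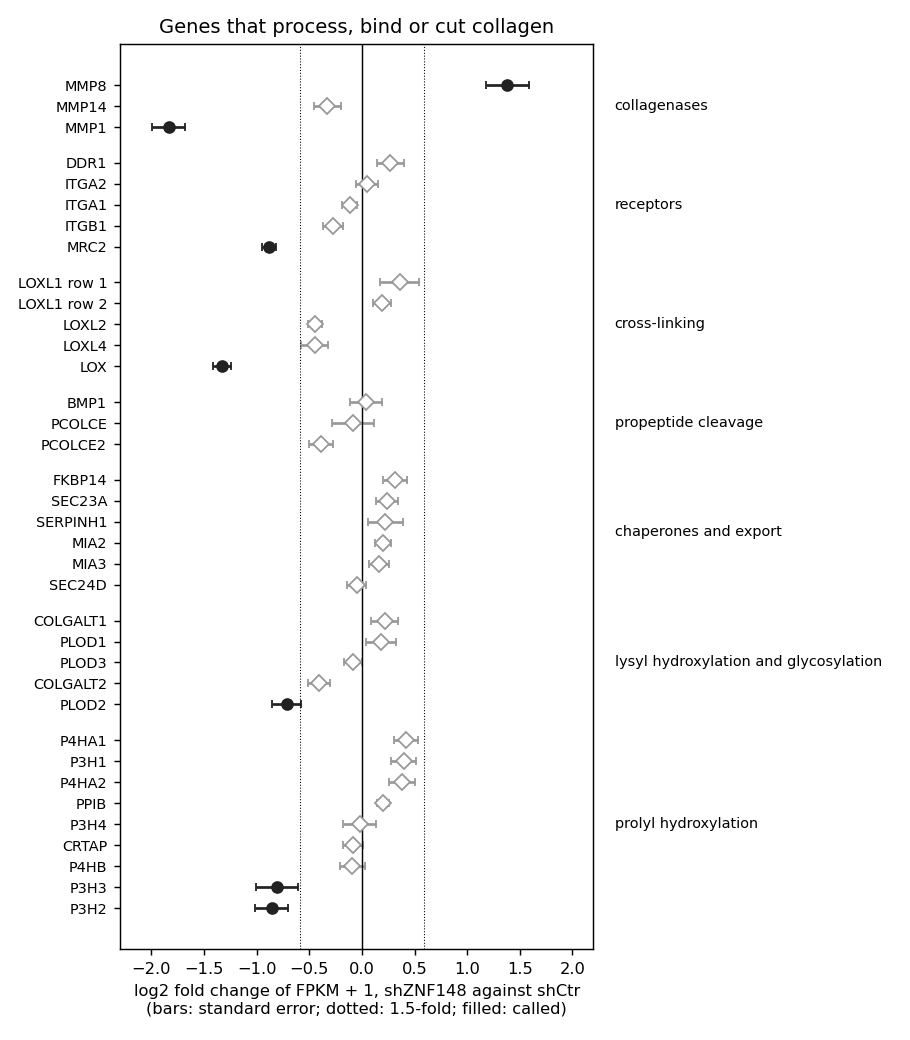
Log2 fold change of FPKM + 1 (shZNF148 against shCtr, horizontal axis) of the 36 tested rows of genes that process, bind or cut collagen, grouped by role, with bars for the standard error and dotted lines at 1.5-fold. Of the 7 filled points, which mark called rows, 6 lie to the left, and the 1 on the right is MMP8 at 1.38.

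The enzymes that modify the growing chain showed calls in some members only. P3H2 (listed as LEPREL1), a prolyl 3-hydroxylase with a preference for type IV collagen, read 21.1, 25.1 and 21.1 FPKM in shCtr and 13.0, 9.17 and 14.04 FPKM in shZNF148. Every shZNF148 value was below every shCtr value (log2 fold change -0.86 ± 0.16, limma adjusted p = 0.0239). The related P3H3 (LEPREL2) had means of 2.45 ± 0.0730 and 1.02 ± 0.493 FPKM (log2 fold change -0.81 ± 0.20, limma adjusted p = 0.0451). P3H1 (LEPRE1) went the other way without overlap, with means of 62.7 ± 3.15 and 83.6 ± 14.5 FPKM. It was not called (log2 fold change 0.40 ± 0.12, limma adjusted p = 0.0729), nor was P3H4 (LEPREL4, log2 fold change -0.02 ± 0.16, adjusted p = 0.944). PLOD2, which hydroxylates lysines of the telopeptides and so sets the type of cross-link, read 83.2, 80.2 and 79.3 FPKM in shCtr and 50.1, 39.6 and 58.7 FPKM in shZNF148. The groups were apart (log2 fold change -0.72 ± 0.14, limma adjusted p = 0.0254). None of the tested prolyl 4-hydroxylase subunits, which stabilise the helix, was called. P4HA1 had means of 139 ± 7.31 and 188 ± 31.1 FPKM (log2 fold change 0.42 ± 0.12, limma adjusted p = 0.0605). The 6 tested rows of chaperones and export factors, SERPINH1 included, had no call, nor did the 3 tested rows of propeptide cleavage. The calls of P3H2, P3H3 and PLOD2 were lost without shCtr replicates 1, 2 or 3 or shZNF148 replicate 1 (limma adjusted p = 0.0612 to 0.141). That of PLOD2 was also lost without shZNF148 replicate 2, by its size (-0.57, adjusted p = 0.0148), and that of P3H3 without shZNF148 replicate 3 (adjusted p = 0.0502). Without both samples numbered 2, PLOD2 and P3H3 were under 1.5-fold (-0.57 and -0.58, adjusted p = 0.0411 and 0.0492). P3H3 was also not called with no filter on low values (adjusted p = 0.0606), and ran from -1.31 with a pseudocount of 0.1 FPKM (adjusted p = 0.0644) to -0.31 with 5 FPKM.

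Of the cross-linking oxidases, LOX was called lower, and LOXL2 passed the adjusted p with less than a 1.5-fold change. LOX read 29.3, 27.1 and 26.6 FPKM in shCtr and 10.4, 9.52 and 11.4 FPKM in shZNF148, with a wide gap between the groups (log2 fold change -1.33 ± 0.08, limma adjusted p = 0.00318). LOXL2 read 254, 259 and 237 FPKM in shCtr and 180, 195 and 175 FPKM in shZNF148, a higher level than any collagen (log2 fold change -0.45 ± 0.07, limma adjusted p = 0.0173). MRC2, an endocytic receptor that takes up cut collagen, read 33.6, 31.2 and 30.9 FPKM in shCtr and 17.0, 16.6 and 16.8 FPKM in shZNF148. The spread of MRC2 within either group was small beside the gap between them (log2 fold change -0.88 ± 0.06, limma adjusted p = 0.00377). The integrin chains ITGA1 (in a row joined with PELO), ITGA2 and ITGB1 were not called.

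The interstitial collagenases MMP1 and MMP8, which cut fibrillar collagen, went in opposite directions. MMP1 read 19.7, 15.6 and 14.7 FPKM in shCtr and 4.56, 3.03 and 4.28 FPKM in shZNF148 (log2 fold change -1.84 ± 0.16, limma adjusted p = 0.00657). MMP8 read 0.706, 0.763 and 1.08 FPKM in shCtr and 4.59, 2.57 and 4.54 FPKM in shZNF148 (log2 fold change 1.38 ± 0.20, limma adjusted p = 0.0161). Neither pair of groups overlapped, and for MMP8 shZNF148 replicate 2 was the sample nearest to shCtr. The call of MMP8 was lost without shCtr replicates 1, 2 or 3 (limma adjusted p = 0.0852, 0.0593 and 0.0725) or shZNF148 replicate 1 (adjusted p = 0.0528), whereas MMP1, LOX and MRC2 were called with any 1 library left out. MMP14, the membrane-bound collagenase and the highest of the 6 in level, had means of 352 ± 12.4 and 283 ± 52.4 FPKM with overlapping groups (limma adjusted p = 0.123).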

How the data were processed

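RNA-seq was performed in 3 shCtr and 3 shZNF148 replicates of MDA-MB-231 cells, grouped by the sample labels. The deposited file is 1 matrix in FPKM, as the authors computed it, of which all 6 sample columns were used. The sources differ on how it was made. The submitters' processing notes name bcl2fastq 2.17.1.14, TopHat2 2.0.14, Cufflinks 2.2.1 and Cuffnorm 2.2.1 with hg18 and hg19, whereas the study's methods name Salmon with GRCh38 and DESeq2. FPKM are not read counts, so limma 3.58.1 (R 4.3.3) was used in place of DESeq2. Depth in reads is unknown, which limits the precision of low values.

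Rows were kept at a mean FPKM of 1 or more and fitted as log2(FPKM + 1), with trended eBayes and Benjamini-Hochberg adjustment over 11777 rows. Fold changes on this scale understate those of low genes. A call required an adjusted p under 0.05 and more than a 1.5-fold change. Sums and ratios were compared by exact two-sided permutation tests. Every collagen row was accounted for. Rows tested were named with their values, and listed genes where called or where a comparison turned on them. The members and lists were chosen with earlier results of these data known. Alternatives covered the filter, the pseudocount, the scaling, the variance model, the replicate number as a block, summed rows and leaving out each replicate. Leaving out both samples numbered 2 was chosen after seeing the data. The steps were tested on simulated data. Motifs were searched in RefSeq promoters of GRCh38.p14, and 3′ UTRs came from GENCODE release 44. Python 3.11.15 was used for the remaining steps.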

Additional observations from a re-analysis of the deposited data

How the results depend on the processing

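COL8A1, COL4A1, COL4A2 and COL12A1 stayed called lower under the 11 alternatives that left out no single library. Leaving out 1 library gave 1 to 5 collagens called lower and 0 to 1 called higher, with the fewest (1 lower, COL8A1) without shCtr replicate 1 or 3. It gave 3 to 5 rows of the processing and receptor list called lower and 0 to 1 called higher, and 22 to 566 rows called of all tested, against 647. The median collagen change ranged from -0.17 to 0.0041, the latter without shZNF148 replicate 2. ZNF148 ranged from -1.74 to -1.45 with 1 library left out, was -2.57 with a pseudocount of 0.1 FPKM and -0.69 with 5 FPKM, and missed the threshold without shCtr replicate 1 (-1.69, limma adjusted p = 0.0673) or replicate 3 (-1.61, adjusted p = 0.0653). A pseudocount of 5 FPKM gave 280 rows called of all tested. With a filter at a mean of 5 FPKM, the processing and receptor list had 0 rows called higher, since MMP8 was not tested. With no filter the median collagen change was -0.0094 over 38 rows. The sign turned for uncalled rows only. With 1 library left out, COL16A1 ranged from -0.33 to 0.0024, COL27A1 from -0.17 to 0.016 and COL6A3 from -0.35 to 0.17. These were COL16A1 without shCtr replicate 1 (0.0024), COL27A1 (0.016) and COL6A3 (0.17) without shZNF148 replicate 2, and COL18A1 (-0.041), COL27A1 (0.034) and COL6A3 (0.16) without both samples numbered 2. The cause of these changes was not tested, and the number of samples or rows differed in some of these fits as well.

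Over all tested rows, the samples that share a number correlated at 0.0010, -0.088 and 0.030 once each group mean was subtracted, so the numbers were not taken to pair the samples. Single rows did deviate together, such as ERBB2 and COL1A2, which were highest in replicate 2 of both groups. With the replicate number as a replicate block, 315 of all tested rows were called and 3 of the list were called lower. COL8A1, COL4A1, COL4A2 and COL12A1 were still called, COL4A5 and COL6A1 were not (limma adjusted p = 0.0567 for each), and COL1A2 was called higher (adjusted p = 0.0415).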
